A study of Mus musculus with 16 samples.

Results

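The loss of MCPIP1 from myeloid cells was examined in the skin of 4 MKO and 4 control mice, 8 of the 16 mice of the series, chosen by the group that each mouse's title names. MKO mice had both alleles of Zc3h12a floxed and 1 copy of LysM-Cre, written Zc3h12a(loxP/loxP)LysMCre(Tg/Wt), and control mice had the floxed alleles without a Cre, written Zc3h12a(loxP/loxP). The other 8 mice carried Krt14-Cre as well, which is active in keratinocytes, either alone (EKO) or together with LysM-Cre (EMdKO). They are used here as a second pair of groups that differ by LysM-Cre and share no mouse with the first pair. All mice were 12 weeks old, all carried the floxed alleles, and each library came from the whole skin of 1 mouse.

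MCPIP1, also named Regnase-1, is an RNase that cuts the mRNAs of cytokines and other inflammatory mediators and so limits the response of macrophages to microbial and cytokine signals. LysM-Cre is a Cre inserted in Lyz2, the lysozyme gene of macrophages, monocytes and neutrophils, so an MKO mouse also has 1 altered Lyz2 allele. Skin macrophages clear debris and microbes through scavenger receptors, present antigen, and answer interferons with guanylate-binding GTPases. No group here carried LysM-Cre without floxed Zc3h12a, so the Cre insertion and the loss of MCPIP1 cannot be told apart. In whole skin, fewer cells of a type and less RNA per cell also cannot be told apart.

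Reads were counted on 23930 amplicon targets, and the total per library was between 6962474 and 10392629 counts in the 8 mice. Levels below are CPM, the read counts of a gene scaled to a common library total after TMM scaling, and differences are log2 fold changes ± standard error of MKO over control from the fit of all 16 libraries. A gene is called where its Benjamini-Hochberg adjusted p over the 13633 tested genes was under 0.05. Skin markers were present in each of the 8 control and MKO libraries, with at least 651 CPM of Krt14 and 1970 CPM of Krt5, the basal keratinocyte keratins, at least 382 CPM of Krt1 and 694 CPM of Krt10 of the upper epidermis, and at least 12680 CPM of the dermal collagen gene Col1a1. Control mouse 1 and control mouse 2 stood apart from the other mice, the first by hair follicle genes and the second by interferon and neutrophil genes. Among 11988 genes with a mean log2 CPM of at least 1, control mouse 1 lay over 4-fold above each of the other 7 mice in 94, control mouse 2 in 25, MKO mouse 3 in 8 and the other 5 mice in 0.

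Zc3h12a, the targeted gene, was not lower in MKO skin. It measured 19.4, 21.7, 30.3 and 27.4 CPM in control mice 1 to 4 and 17.1, 35.01, 29.2 and 24.9 CPM in MKO mice 1 to 4, so the groups overlapped fully (difference 0.10 ± 0.22; exact permutation p = 0.771 for 4 against 4 mice, two-sided). Whole skin holds many cells that LysM-Cre does not reach, and the labels name neither the floxed exons nor the counted stretch of the transcript, so this value does not measure the deletion. In the mice that also carried Krt14-Cre, the level was 11.7, 7.07, 7.403 and 8.41 CPM in EKO and 5.47, 5.69, 5.71 and 4.41 CPM in EMdKO mice. Every EMdKO mouse lay below every EKO mouse (exact permutation p = 0.0286, the smallest that 4 against 4 mice can give), with a difference of -0.70 ± 0.23 that was not called over all genes (adjusted p = 0.672 by edgeR's quasi-likelihood test).

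Lyz2, the gene that holds the Cre, measured 344, 324, 548 and 363 CPM in the controls and 263, 176, 225 and 209 CPM in MKO. Every MKO mouse lay below every control (exact permutation p = 0.0286), but the difference of -0.86 ± 0.30 was not called (adjusted p = 0.355 by edgeR's quasi-likelihood test). Its neighbour Lyz1, a second lysozyme gene best known from Paneth cells of the gut, showed the opposite order. Lyz1 measured 40.6, 43.6, 40.9 and 43.7 CPM in the controls and 119, 80.4, 104 and 129 CPM in MKO, with a difference of 1.35 ± 0.35 and an adjusted p of 0.331 by edgeR's quasi-likelihood test. Both genes are nearly identical in sequence and reads may be assigned to either, so their single levels are uncertain. Among 20 tested genes around Lyz2 on chromosome 10, 10 on each side in the gene order of GRCm38.p6, Lyz1 was the 1 gene higher at an unadjusted p under 0.05, and the count of lower genes was 2.

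Of the 13633 genes, 4 rose in MKO skin and 0 fell, which is 0.0293% called higher. They were Marco, Siglece, Gbp2b and Mrgprg, and in each of them every MKO mouse lay above every control, a separation that 1.37% of all tested genes showed in this direction and 1.71% in the other. At an unadjusted p under 0.05 the same test counted 432 higher genes, or 3.17%, and 874 lower ones, or 6.41%. With DESeq2 116 genes were called, 28 higher and 88 lower, and with limma-voom 0. Without any 1 of the 4 control mice Marco was the 1 gene called, and without control mice 1 and 2 together 0 genes were.

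**Figure D1:**
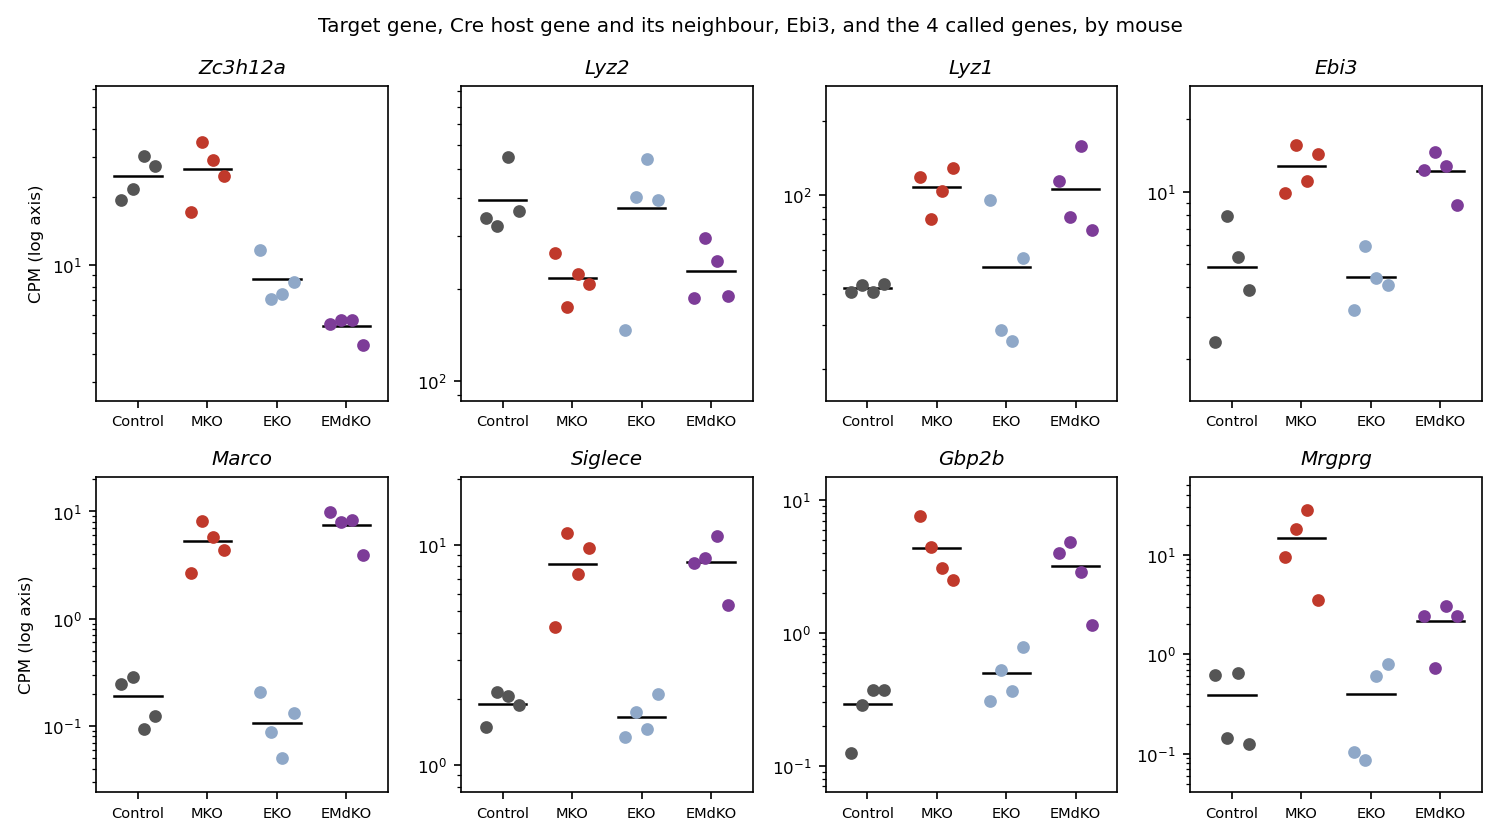
Levels in CPM on log axes for Zc3h12a, Lyz2, Lyz1, Ebi3 and the 4 called genes, with 1 point per mouse and a line at the mean of each group (4 mice); a value of 0 for Marco in EKO is drawn at 0.05. Marco, Siglece and Gbp2b separate the mice with LysM-Cre (MKO, EMdKO) from those without it (control, EKO), while Zc3h12a overlaps between control and MKO.

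Marco encodes a class A scavenger receptor by which macrophages bind bacteria and particles. It was close to absent from control skin, at 0.248, 0.288, 0.0934 and 0.125 CPM, and reached 2.67, 8.09, 5.84 and 4.39 CPM in MKO mice 1 to 4. Behind these levels stood 2, 2, 1 and 1 counts in the control libraries and 17, 64, 49 and 35 in the MKO libraries. The rise of 4.77 ± 0.52 had an adjusted p of 0.00123 by edgeR's quasi-likelihood test. Taken over the summed counts per read sequenced, the ratio was 30.7, with an exact 95% interval of 13.8 to 84.9 that covers counting error only. Marco was called in 16 of 16 fits that left out 1 library, and its adjusted p was 0.0664 with limma-voom and 0.054 without control mice 1 and 2.

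Siglece encodes Siglec-E, an inhibitory receptor of neutrophils, monocytes and macrophages that binds sialic acid. It measured 1.49, 2.16, 2.06 and 1.87 CPM in the controls, a narrow range, and 4.23, 11.4, 7.39 and 9.66 CPM in MKO mice, of which mouse 1 was the lowest. The rise was 2.10 ± 0.31 (adjusted p = 0.0137 by edgeR's quasi-likelihood test). The counts behind it were 64 over the controls, the most of the 4 called genes, and 256 over MKO, a ratio per read of 4.47 with an exact 95% interval of 3.38 to 5.97. The call was lost without MKO mouse 2 or MKO mouse 4 as well as without any control mouse (adjusted p up to 0.0883 by edgeR).

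Gbp2b encodes a guanylate-binding protein, a GTPase induced by interferon-gamma that acts on membranes around intracellular microbes. Control levels were 0.124, 0.288, 0.374 and 0.375 CPM and MKO levels 7.52, 4.42, 3.10 and 2.51 CPM, with mouse 1 the highest. The rise was 3.83 ± 0.54 (adjusted p = 0.0126 by edgeR's quasi-likelihood test), and the ratio per read of 129 to 10 counts was 14.4, with an exact 95% interval of 7.58 to 30.8.

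Mrgprg encodes a Mas-related G protein-coupled receptor, a family best known from sensory neurons and mast cells. It measured 0.619, 0.144, 0.654 and 0.125 CPM in the controls and 9.56, 17.9, 27.9 and 3.51 CPM in MKO. The rise was 5.14 ± 0.73 (adjusted p = 0.0126 by edgeR's quasi-likelihood test), the ratio per read was 37.1 with an exact 95% interval of 21.9 to 68.4, and the MKO mice differed more among themselves than for the other called genes. Gbp2b and Mrgprg both lost their calls without any 1 control mouse, with adjusted p between 0.0708 and 0.0803 by edgeR, while their differences over all fits ranged from 3.21 to 4.02 and from 4.63 to 5.54.

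Because these 4 genes were the ones called, the 250 bases before their starts are shown, from RefSeq on GRCm38.p6, each in the direction of transcription. Capitals mark matches to the PU.1 core GAGGAA (a factor of myeloid genes), the interferon response core GAAANNGAA, the STAT site TTCNNNGAA, the NF-kB consensus and the TATA box TATAAA, searched on both strands; a reverse-strand match appears as its complement, so the PU.1 core then reads TTCCTC. Marco lies at chr1:120505025-120505274 on the minus strand, Siglece at chr7:43660162-43660411 on the minus strand, Gbp2b at chr3:142594597-142594846 on the plus strand and Mrgprg at chr7:143766994-143767243 on the minus strand.
Marco: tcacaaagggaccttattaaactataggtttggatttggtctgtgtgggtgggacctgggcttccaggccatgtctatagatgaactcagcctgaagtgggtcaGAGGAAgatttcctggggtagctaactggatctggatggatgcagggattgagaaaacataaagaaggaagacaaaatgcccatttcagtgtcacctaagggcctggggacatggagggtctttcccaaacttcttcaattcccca
Siglece: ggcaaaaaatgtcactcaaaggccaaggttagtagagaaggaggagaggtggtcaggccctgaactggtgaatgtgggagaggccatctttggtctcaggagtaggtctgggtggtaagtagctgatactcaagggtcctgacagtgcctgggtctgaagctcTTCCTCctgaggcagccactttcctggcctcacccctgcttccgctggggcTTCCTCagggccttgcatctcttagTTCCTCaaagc
Gbp2b: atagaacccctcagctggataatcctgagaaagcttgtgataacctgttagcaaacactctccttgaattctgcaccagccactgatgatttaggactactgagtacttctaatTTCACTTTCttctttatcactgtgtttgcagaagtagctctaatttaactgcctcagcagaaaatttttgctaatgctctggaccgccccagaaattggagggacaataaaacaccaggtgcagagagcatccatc
Mrgprg: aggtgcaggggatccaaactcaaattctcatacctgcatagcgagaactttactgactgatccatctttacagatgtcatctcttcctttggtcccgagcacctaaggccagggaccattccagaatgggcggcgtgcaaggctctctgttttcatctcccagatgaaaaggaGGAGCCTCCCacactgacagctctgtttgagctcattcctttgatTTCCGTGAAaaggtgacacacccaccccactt
The Marco window held 1 PU.1 core and the Siglece window 3, against 23.3% of the 32851 windows of this length that held at least 1. Gbp2b had 1 interferon response core (7.13% of windows) and Mrgprg had 1 STAT site (7.02%) and 1 NF-kB match (7.25%). The TATA box letters occurred in 12.4% of all windows and in none of these 4 windows. A match is a string of letters and no measurement of binding.

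The second pair of groups, EMdKO against EKO, gives the difference under LysM-Cre in mice that also lack MCPIP1 in keratinocytes. Of the 13633 genes 2 were called, both higher (0.0147%), and they were Marco and Siglece. Marco measured 0.206, 0.0872, 0 and 0.131 CPM in EKO and 9.94, 7.996, 8.37 and 3.88 CPM in EMdKO mice, a rise of 5.96 ± 0.55 (adjusted p = 9.85e-05 by edgeR's quasi-likelihood test). Siglece measured 1.34, 1.75, 1.46 and 2.10 CPM in EKO and 8.29, 8.72, 11.04 and 5.36 CPM in EMdKO, a rise of 2.33 ± 0.31 (adjusted p = 0.00806 by edgeR's quasi-likelihood test). The call on Siglece was lost without EKO mouse 1, 2 or 3, and Marco was called in those 3 fits.

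Gbp2b and Mrgprg were not called there. Gbp2b nevertheless separated the groups, at 0.310, 0.523, 0.364 and 0.788 CPM in EKO and 3.98, 4.85, 2.85 and 1.16 CPM in EMdKO (difference 2.67 ± 0.49), as 2.86% of all tested genes did in this direction. Mrgprg overlapped, with 2.40, 0.727, 3.04 and 2.42 CPM in EMdKO and up to 0.788 CPM in EKO. Its difference of 2.53 ± 0.76 was smaller than that of 5.14 ± 0.73 between MKO and control (interaction -2.61, unadjusted p = 0.0347, adjusted p = 0.999 by edgeR). No gene was called in the interaction by edgeR or limma-voom, where edgeR counted 465 genes at an unadjusted p under 0.05, and DESeq2 called 3 hair keratin-associated protein genes.

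Beyond the called genes, the direction was compared over the 397 genes with an unadjusted p under 0.01 in MKO against control. Of the 98 higher ones, 83 (84.7%) were also higher in EMdKO than in EKO, and of the 299 lower ones 233 (77.9%) were also lower, where 61.6% and 61.2% of all higher and lower genes had the same sign in both pairs. An unadjusted p under 0.05 in that direction was reached by 34 of the 98 (34.7%) and by 42 of the 299 (14.0%). Among all higher and lower genes 5.37% and 5.13% reached it. Without EKO mouse 1 the same-sign shares of the 2 selected sets were 88.0% and 65.3%. Genes are not independent of each other, so these shares describe the 2 pairs of groups.

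**Figure D2:**
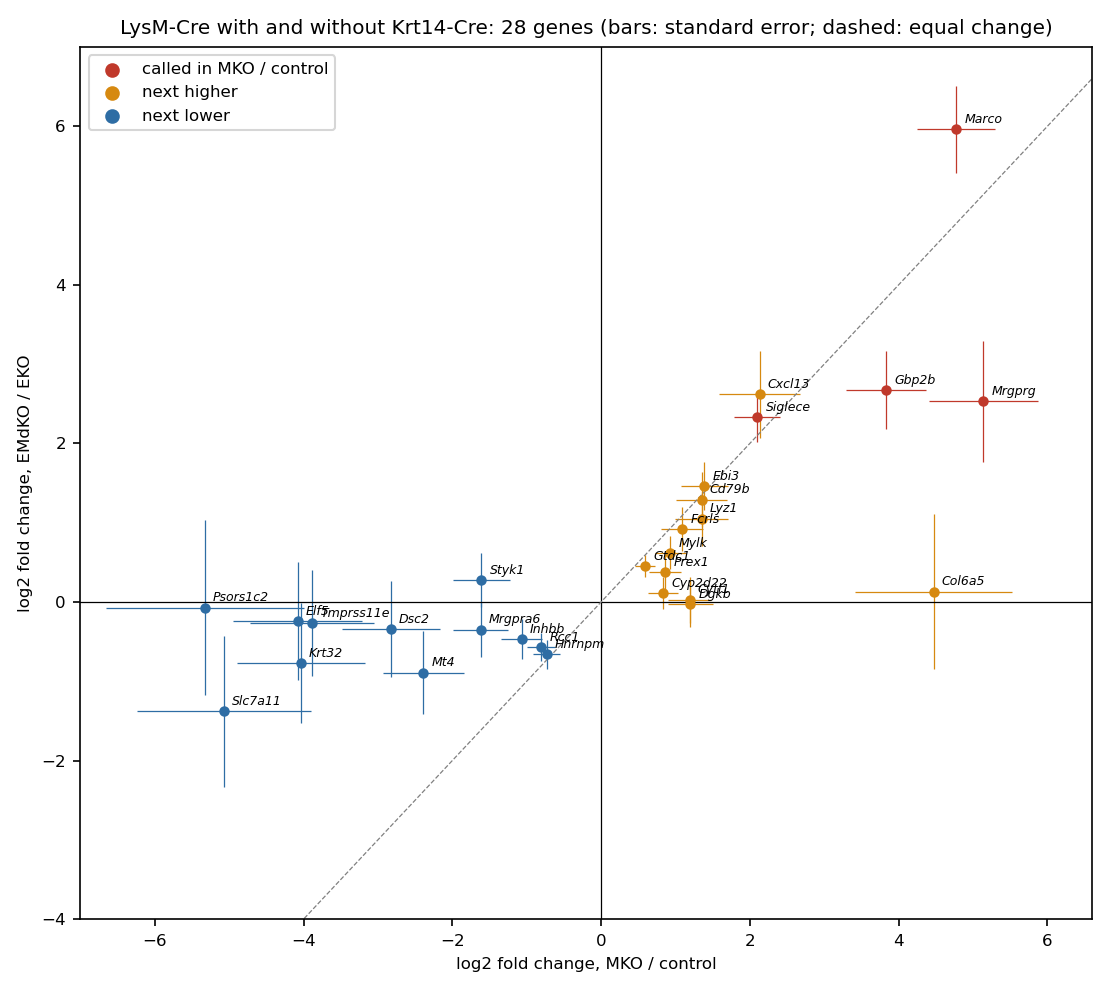
Log2 fold change of MKO over control (horizontal axis) against that of EMdKO over EKO (vertical axis) for the 4 called genes and the 12 higher and 12 lower genes next in p, with bars of 1 standard error and a dashed line of equal change. Siglece, Cxcl13, Ebi3, Cd79b and Lyz1 lie near the dashed line, while Marco lies above it and Gbp2b and Mrgprg lie below it. Col6a5, Dgkb, Cytl1 and the follicle genes Krt32 and Elf5 lie within 1 unit of 0 on the vertical axis.

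No relative of the called receptors was called with them. Of 6 tested Siglec genes 4 were higher in MKO, the median difference was 0.36, and only Siglece was called. Cd33, a related inhibitory Siglec of myeloid cells, measured 7.80, 6.47, 10.1 and 7.62 CPM in the controls and 11.4, 10.4, 11.1 and 10.04 CPM in MKO (0.42 ± 0.29). Siglec1, a marker of tissue macrophages, differed by -0.13 ± 0.27, and Siglech, a marker of plasmacytoid dendritic cells, at -1.02 ± 0.53. Siglecf and Siglecg had too few counts to be tested, 47 and 49 over the MKO libraries against 21 and 23 over the controls.

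The list of scavenger and pattern-recognition receptors had 26 tested genes, of which 9 were higher in MKO with a median difference of -0.16, beside a median of 0.00 over all genes. Marco was the 1 gene called. Msr1, another class A scavenger receptor of macrophages, measured 0.743, 2.73, 1.59 and 0.750 CPM in the controls and 0.627, 0.379, 0.357 and 0.878 CPM in MKO (-1.35 ± 0.50), so it leaned the other way at low counts. The haemoglobin scavenger receptor gene Cd163 measured 41.5, 50.1, 73.9 and 85.2 CPM in the controls and 118, 71.4, 91.2 and 95.8 CPM in MKO (0.59 ± 0.24). Mrc1, the mannose receptor of resident macrophages, differed by -0.06 ± 0.20. Among C-type lectins of inflammatory phagocytes, Clec4d (-4.81 ± 1.48), Clec4n (-1.06 ± 0.42) and Clec7a (-0.52 ± 0.25) had their highest level in control mouse 2, at 10.2, 8.49 and 30.1 CPM. The nucleic acid receptor gene Tlr9 stood at 200 CPM in that mouse and at 24.4 to 59.4 CPM in the other 7, and its difference turned from -0.53 to 0.76 without it. Between EMdKO and EKO the median of the list was 0.03, with 14 of 26 genes higher. Clec4d, Clec4n, Clec7a and Msr1 differed there by -3.67 ± 1.27, -0.67 ± 0.41, -0.52 ± 0.25 and -1.25 ± 0.49, and none of them was called.

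The guanylate-binding and immunity-related GTPases, which interferon-gamma induces, were higher in MKO as a whole list. All 9 tested members had a positive difference, with a median of 0.72, and Gbp2b was the 1 called. Of them 3 reached an unadjusted p under 0.05, beside 3.17% of all tested genes on the higher side. Gbp4 measured 11.3, 68.6, 29.6 and 19.6 CPM in the controls and 134, 128, 40.8 and 50.5 CPM in MKO (1.45 ± 0.52), and the groups overlapped through control mouse 2. Gbp2 measured 16.5, 29.6, 19.2 and 14.0 CPM in the controls and 56.8, 36.1, 20.4 and 21.1 CPM in MKO (0.76 ± 0.31). MKO mouse 1 held the highest level in its group for all 9 genes and mouse 3 the lowest for 8, as with Gbp5 at 72.4, 45.6, 14.4 and 21.2 CPM. Control mouse 2 was the highest control for these genes apart from Gbp2b, and without it the median difference was 1.28 with all 9 positive. Without MKO mouse 1 the median was 0.33, and without control mouse 1 it was 0.54 with 8 of 9 positive. In EMdKO against EKO all 9 were positive as well, with a median of 0.58, and neither pair of groups had another member called.

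Of the Mas-related receptor genes 6 were tested, 4 were higher and the median was 0.36, and 10 further listed genes of the family held too few counts for a test. Mrgprb2, the receptor through which basic secretagogues activate mouse mast cells, measured 0.495, 2.16, 2.06 and 1.62 CPM in the controls and 2.19, 2.78, 2.50 and 2.51 CPM in MKO (0.65 ± 0.40). Mrgpra6, which was not on the list but ranked among the 12 lower genes, measured 7.06, 3.88, 2.15 and 3.37 CPM in the controls and 1.10, 1.01, 1.67 and 1.51 CPM in MKO (-1.62 ± 0.37; adjusted p = 0.331 by edgeR). Family members thus stood on both sides of 0.

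**Figure D3:**
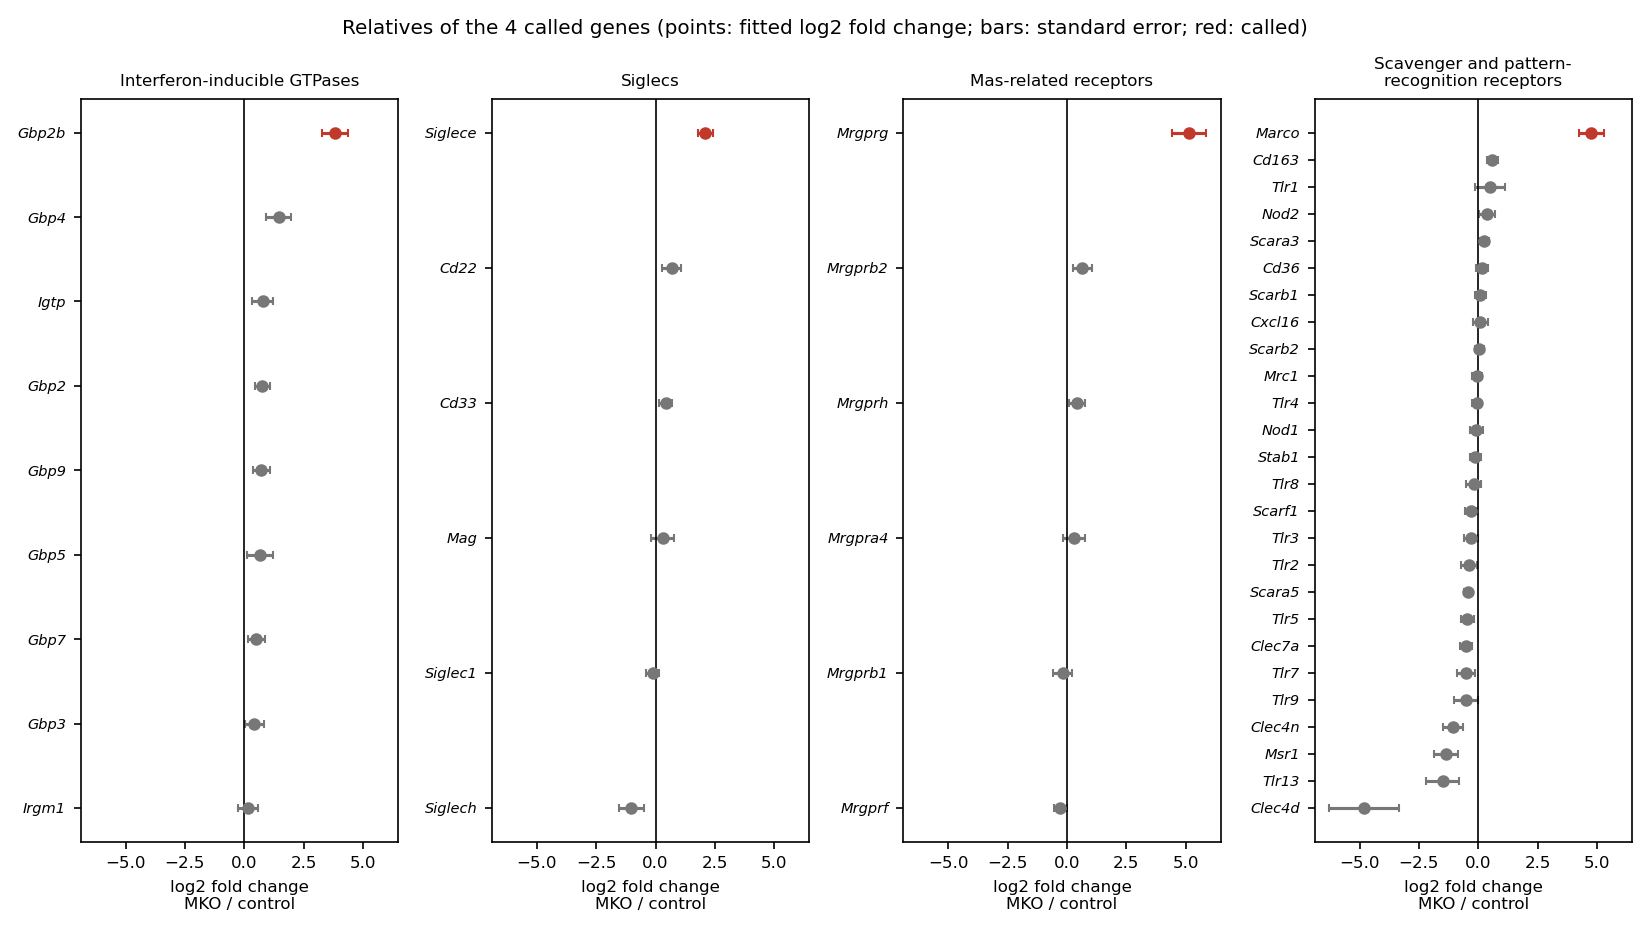
Fitted log2 fold change of MKO over control, with bars of 1 standard error, for every tested gene of the lists that hold the 4 called genes; red points are called. Each panel has 1 called gene well to the right, all 9 GTPases lie to the right of 0, and the receptors of the other panels spread around 0.

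Macrophage markers stood on both sides of 0. Of 19 tested genes 10 were higher, the median was 0.01, and none was called. Adgre1, the F4/80 antigen, measured 17.2, 20.6, 20.3 and 11.9 CPM in the controls and 26.3, 39.7, 32.2 and 33.9 CPM in MKO, without overlap (0.92 ± 0.25, adjusted p = 0.331 by edgeR), and it differed by 0.89 ± 0.25 in EMdKO against EKO. Itgam, the integrin CD11b of myeloid cells, differed by 0.67 ± 0.29 and the dermal macrophage lectin gene Cd209f by 0.86 ± 0.31, both with overlap. Csf1r, the receptor for the growth factor that maintains macrophages, measured 38.3, 25.3, 57.4 and 49.9 CPM in the controls and 44.4, 36.8, 48.6 and 42.0 CPM in MKO (0.01 ± 0.22), and Cd68, a lysosomal marker of macrophages, differed by -0.51 ± 0.26. Itgam, Cd209f, Csf1r and Cd68 were picked from the list after their values were seen. The Fc receptor-like scavenger gene Fcrls separated the groups at 3.10, 6.33, 8.41 and 7.25 CPM in the controls and 13.6, 13.4, 14.9 and 11.8 CPM in MKO (1.09 ± 0.28). Lysosomal and complement genes, 22 tested and 9 higher, had a median of -0.14, with the protease gene Ctsd (-0.71 ± 0.23) and the growth factor gene Grn (-0.42 ± 0.16) both without overlap, and C1qa had 0 counts in all 8 libraries, so that its target gave no signal.

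Among cytokine genes, Ebi3 encodes the subunit shared by interleukin-27 and interleukin-35. It measured 2.35, 7.91, 5.33 and 3.87 CPM in the controls and 9.88, 15.7, 11.1 and 14.3 CPM in MKO, without overlap (1.39 ± 0.31; adjusted p = 0.331 by edgeR). Its difference between EMdKO and EKO was 1.46 ± 0.30. Il12rb2, a chain of the interleukin-12 receptor, measured 38.0, 41.7, 70.5 and 129 CPM in the controls and 96.7, 241, 200 and 122 CPM in MKO (1.24 ± 0.41). Of 7 tested genes of the interleukin-12 family and its receptors 6 were higher, with a median of 0.39, and Il10, an anti-inflammatory cytokine gene, differed by -0.59 ± 0.39. Among the untested genes of this family, the subunit genes Il12b and Il27 held at most 6 and 30 counts in any of these libraries.

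Of the B cell and plasma cell genes 9 were tested, 7 had a positive difference, the median was 0.62 and none was called. The median was 0.27 without control mice 1 and 2, and 0.10 in EMdKO against EKO with 7 of 9 positive. Their mean log2 CPM was 4.03, 3.94, 4.06 and 4.17 in the controls and 4.26, 5.46, 5.31 and 4.78 in MKO, so every MKO mouse lay above every control. Jchain, the joining chain of secreted antibodies, measured 0.495, 0, 0.374 and 0.750 CPM in the controls and 2.35, 30.2, 15.97 and 2.76 CPM in MKO (4.92 ± 0.91, adjusted p = 0.154 by edgeR). Pou2af1, a B cell coactivator, measured 0.495, 1.73, 0.374 and 0.375 CPM in the controls and 1.88, 12.1, 9.18 and 1.38 CPM in MKO, with overlap (3.09 ± 0.72). Its difference between EMdKO and EKO was 1.22 ± 0.78. Cd79b, of the B cell receptor, measured 1.98, 2.16, 2.43 and 1.37 CPM in the controls and 2.98, 4.30, 5.72 and 7.28 CPM in MKO (1.35 ± 0.34). Ms4a1, a defining B cell gene, held at most 2 counts in any of the 8 libraries, and 12 of the 21 matched genes of the list had too few counts to be tested. Among these the B cell genes Pax5 and Tnfrsf13c, chosen after their values were seen, held 11 and 10 counts over MKO and 37 and 31 over the controls. Jchain and Pou2af1 passed the filter on low counts through libraries where they were high, so the tested genes and their mean do not stand for the whole list.

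The list of lymphoid organising signals had 7 tested genes, of which 5 were higher, with a median of 0.20 and none called. Cxcl13, the chemokine that organises B cell follicles, measured 45.2, 21.4, 53.3 and 6.12 CPM in the controls and 59.4, 236, 191 and 66.8 CPM in MKO (2.13 ± 0.54; adjusted p = 0.331 by edgeR). It measured 11.9, 14.0, 11.8 and 11.2 CPM in EKO and 84.1, 43.1, 103 and 69.4 CPM in EMdKO (2.62 ± 0.55). Tnfsf13b, which encodes the B cell survival factor BAFF, measured 3.96, 5.18, 6.07 and 5.12 CPM in the controls and 9.09, 10.6, 9.18 and 11.2 CPM in MKO (0.97 ± 0.27), and differed by 1.01 ± 0.27 in EMdKO against EKO. In both genes and both pairs no mouse with LysM-Cre fell within the range of the mice without it. Ccr7, the receptor that guides dendritic cells and T cells to lymph nodes, differed by -1.85 ± 0.69, with control mouse 2 at 12.1 CPM and the other controls at 1.49 to 2.90 CPM.

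Antigen presentation genes were higher in 21 of 22 tested cases, with a median of 0.37 and none called. The class II gene H2-Eb1 measured 141, 177, 334 and 295 CPM in the controls and 328, 413, 372 and 346 CPM in MKO (0.62 ± 0.27), H2-Aa differed by 0.60 ± 0.29 and the peptide-loading gene H2-DMa by 0.54 ± 0.24. The class II chaperone gene Cd74, picked after its values were seen, differed by 0.16 ± 0.31. Control mouse 1 held the lowest mean log2 CPM over the list, 5.42, where the other 7 mice had 6.37 to 6.89, and without it the median was 0.11 with 16 of 22 positive. In EMdKO against EKO 15 of 22 were positive, with a median of 0.22.

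The mRNAs that MCPIP1 is known to cut were not higher in MKO skin as a list. Of 28 listed target genes, 19 were tested, 6 were higher, the median was -0.34 and none was called. Il6, Il12b, Il2, Csf3, Cxcl3 and Calcr held at most 8 counts in any of the 8 libraries, so a difference in them was not detectable at this depth. The other untested targets were Cxcl5, Cxcl2 and Ctla4. Cxcl5 and Cxcl2 held 306 and 113 counts over the controls, of which 295 and 99 lay in a single library, and 1 count each over MKO. Ctla4 held 11 counts over the controls and 15 over MKO. Il1b measured 3.34, 35.5, 4.86 and 1.87 CPM in the controls and 1.41, 2.91, 1.31 and 2.13 CPM in MKO, Cxcl1 reached 6.04 CPM and Ptgs2 25.6 CPM in control mouse 2, and Tnf held at most 1.73 CPM in any of the 8 mice. Without control mouse 2 the median was 0.11 with 12 of 19 positive. Cebpb, the transcription factor of acute phase and myeloid genes, measured 93.8, 104, 73.8 and 86.2 CPM in the controls and 59.4, 67.4, 60.3 and 60.7 CPM in MKO, without overlap (-0.53 ± 0.21), while Icos, a T cell costimulator, differed by 0.94 ± 0.43 and the NF-kB subunit gene Rel by 0.24 ± 0.25. In EMdKO against EKO, 15 of the 19 were positive with a median of 0.24. NF-kB pathway genes, 16 tested and 10 higher, had a median of 0.04, and other RNA decay genes, 15 tested and 9 higher, one of 0.10. Cxcl1, Ptgs2 and Tnf were picked from the target list after their values were seen.

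Interferon-response genes apart from the GTPases were lower in 16 of 20 cases, with a median of -0.79, a value that turned with control mouse 2. The mean log2 CPM of the list was 3.40, 5.54, 3.59 and 2.98 in the controls and 3.90, 3.43, 3.15 and 3.38 in MKO. The antiviral gene Rsad2 measured 8.17, 221, 7.66 and 2.87 CPM in the controls and 11.4, 7.71, 5.12 and 9.54 CPM in MKO, and Cxcl10, a chemokine for T cells, 14.2, 559, 13.1 and 8.37 CPM against 6.90, 15.5, 14.1 and 22.3 CPM. Mx1 and Oasl1, also antiviral effectors, stood at 36.7 and 35.7 CPM in the same control mouse and at most at 5.17 CPM in the other 7. Without that mouse the median of the list was 0.16 with 15 of 20 positive, and Cxcl10 and Rsad2 differed by 0.31 and 0.43. The list had 2 of 20 genes higher in EMdKO than in EKO, with a median of -0.37. No member reached an unadjusted p under 0.05 there, and Rsad2, Mx1 and Oasl1 differed by -0.56 ± 0.95, -0.91 ± 0.73 and -1.68 ± 0.82.

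Neutrophil and classical activation genes followed the same mouse. The monocyte and neutrophil list had a mean log2 CPM of 2.32, 4.24, 2.51 and 1.80 in the controls and 2.15, 2.33, 2.58 and 2.09 in MKO, and its median over 12 tested genes moved from -0.29 to 0.02 without control mouse 2. Slfn4, an interferon-induced myeloid gene picked after its values were seen, measured 337 CPM in control mouse 2 and 2.38 to 17.4 CPM in the other 7. The alarmin gene S100a9 separated the groups also among the other mice, since control mice 1, 3 and 4 held 2.85, 2.34 and 1.75 CPM and the MKO mice 0.314, 0.758, 0.715 and 0.251 CPM (-3.87 ± 1.43, not called); its partner S100a8 measured 5.45, 17.7, 1.03 and 0.125 CPM against 0.470, 0.253, 0 and 0.502 CPM, with overlap. Ccl3, a neutrophil and monocyte chemokine, had 65.0 CPM in control mouse 2 and at most 4.67 CPM in the other 7 control and MKO mice. Of the 12 monocyte and neutrophil genes, 4 were higher in EMdKO than in EKO, with a median of -0.48. S100a9, S100a8, Slfn4 and Ccl3 differed there by -3.70 ± 1.11, -4.73 ± 1.30, -3.51 ± 1.26 and -2.85 ± 1.26, none called, with EKO mouse 3 the highest for each. Classical activation genes had a median of 0.24 in that pair, with 9 of 13 higher. The genes Ly6g and Mpo, which define neutrophils, held 0 and at most 1 counts in these libraries.

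Genes of alternative macrophage activation, 11 tested and 6 higher, had a median of 0.00. Retnla, which encodes the type 2 response protein RELM-alpha, measured 351, 298, 302 and 337 CPM in the controls and 747, 220, 2395 and 347 CPM in MKO (1.53 ± 0.59), with MKO mouse 3 far above the rest. That mouse also held 713 CPM of Col6a5, a skin collagen VI chain, 986 CPM of the matricellular gene Postn, 136 CPM of Tnfaip6, a hyaluronan-binding protein of inflamed tissue, 89.1 CPM of the carbonic anhydrase gene Car4, 49.3 CPM of the leukotriene C4 synthase gene Ltc4s and 18.8 CPM of the ficolin gene Fcna, where the other 7 mice had at most 33.1, 197, 26.7, 7.84, 11.8 and 4.23 CPM. Fibronectin, Fn1, stood at 2032 CPM in it and at 394 to 694 CPM in the others. Ccl11, the eotaxin gene, was highest in the same mouse at 31.3 CPM but also stood at 20.2, 20.2 and 7.53 CPM in the other MKO mice, against 5.33, 11.9, 10.4 and 4.87 CPM in the controls (1.29 ± 0.43), and Ccl24, a second eotaxin, differed by -1.08 ± 0.46. Car4, Tnfaip6, Ltc4s and Fcna were picked after their values were seen.

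Other genes next in p were of varied kinds. Gtdc1, a glycosyltransferase-like gene, measured 19.1, 17.0, 17.3 and 17.5 CPM in the controls and 31.0, 25.1, 23.5 and 27.1 CPM in MKO (0.59 ± 0.14), and differed by 0.45 ± 0.14 in EMdKO against EKO. Mylk, the myosin light chain kinase of smooth muscle, differed by 0.93 ± 0.21 and the Rac exchange factor gene Prex1 by 0.86 ± 0.22, both without overlap. Cyp2d22, a cytochrome P450 gene, Dgkb, a diacylglycerol kinase gene, and the cytokine-like gene Cytl1 differed by 0.83 ± 0.20, 1.2 ± 0.30 and 1.19 ± 0.29, but by 0.11, -0.03 and 0.03 in EMdKO against EKO. On the lower side, the nuclear transport gene Rcc1 measured 18.4, 13.9, 11.1 and 13.5 CPM in the controls and 7.84, 9.23, 7.51 and 7.91 CPM in MKO (-0.81 ± 0.19), the splicing factor gene Hnrnpm differed by -0.73 ± 0.18, and both differed in the same direction in EMdKO against EKO (-0.57 ± 0.18 and -0.66 ± 0.18). Styk1, a kinase-like gene, and Inhbb, an activin subunit, lay lower in every MKO mouse (-1.61 ± 0.38 and -1.07 ± 0.27). Styk1 differed by 0.28 ± 0.34 between EMdKO and EKO (interaction 1.89, unadjusted p = 0.00195, adjusted p = 0.999 by edgeR). None of these genes was called in either pair of groups.

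Proliferation genes were lower in MKO in 28 of 28 tested cases, with a median of -0.68 and none called. Of them 16 had an unadjusted p under 0.05, beside 6.41% of all tested genes on the lower side. Kif11, a motor of the mitotic spindle, measured 10.5, 4.32, 5.33 and 3.37 CPM in the controls and 1.41, 1.90, 2.98 and 3.26 CPM in MKO (-1.29 ± 0.36). Ccnb2, a mitotic cyclin, differed by -0.99 ± 0.30 and the replication licensing gene Cdt1 by -0.87 ± 0.25, both without overlap. In EMdKO against EKO 28 of 28 were lower too, with a median of -0.64. There 15 had an unadjusted p under 0.05, as did 433 of all 13633 tested genes on the lower side. The mean log2 CPM of the list was 4.80, 3.67, 3.77 and 3.62 in the controls and 2.65, 3.38, 3.33 and 3.90 in MKO, so MKO mouse 4 lay above 3 of the controls. Without control mouse 1 the median was -0.35 with 25 of 28 lower. In that fit 4 had an unadjusted p under 0.05, as did 432 of all 13633 genes on the lower side. With the mean level of the hair shaft genes below as a covariate, the median was -0.28 with 24 of 28 lower. In that fit 1 of them had an unadjusted p under 0.05, as did 190 of all 13633 genes on the lower side. Hair shaft genes were also highest in control mouse 1, but their median between EMdKO and EKO was -0.08. A link between the hair shaft and proliferation lists was not tested.

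The hair shaft genes had the median farthest from 0 of the 40 gene lists, and their levels tracked single mice. The hair shaft list, 25 tested genes of which 24 were lower, had a median of -7.41 and a mean log2 CPM of 8.59, 5.55, 3.79 and -0.98 in the controls and -1.05, -0.99, -1.12 and 1.69 in MKO. Control mouse 4 thus lay with the MKO mice. Krt32, a hair cuticle keratin, separated the groups, at 207, 37.2, 17.7 and 11.8 CPM in the controls and 3.45, 5.05, 4.05 and 4.02 CPM in MKO (-4.04 ± 0.86; adjusted p = 0.331 by edgeR). The inner root sheath keratin genes Krt28 and Krt72 reached 1451 and 1353 CPM in control mouse 1, and Foxn1 and Msx2, transcription factors of the growing follicle, 150 and 184 CPM. The median of the 12 inner root sheath genes was -6.55, and that of 11 melanocyte genes -3.64, with the pigment cell genes Pmel (-3.98 ± 1.12), Trpm1 (-4.91 ± 1.36) and Oca2 (-6.69 ± 1.86) leading. Without control mice 1 and 2 the medians were -3.18 for hair shaft, -2.89 for inner root sheath and -1.02 for melanocyte genes, and without control mouse 1 alone they were -5.00, -4.25 and -1.92. Between EMdKO and EKO the hair shaft median was -0.08 with 12 of 25 genes higher, that of inner root sheath genes -0.42 with 2 of 12 higher, and that of melanocyte genes -1.80 with 2 of 11 higher.

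Several lower genes next in p were epithelial genes with their highest level in control mouse 1. Elf5, an epithelial transcription factor, measured 125, 30.4, 7.57 and 6.50 CPM in the controls and 0.941, 3.16, 2.98 and 2.76 CPM in MKO (-4.08 ± 0.87), and the desmosomal cadherin gene Dsc2 68.4, 12.4, 5.70 and 7.87 CPM against 3.13, 3.41, 3.22 and 3.39 CPM (-2.83 ± 0.66). Tmprss11e, a serine protease gene, Mt4, an epithelial metallothionein, Slc7a11, a cystine transporter linked to hair pigment, and Psors1c2 differed by -3.89 ± 0.83, -2.39 ± 0.54, -5.07 ± 1.17 and -5.33 ± 1.33. Their differences between EMdKO and EKO were -0.27, -0.89, -1.38 and -0.07. In a fit with the mean level of hair shaft genes as a covariate, Marco remained the 1 gene called, and the differences of Siglece, Gbp2b and Mrgprg were at least 1.90, 3.21 and 4.63 in every fit run.

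Stress and defence genes of the epidermis were lower in MKO as lists. All 9 tested stress keratins and wound genes had negative differences, with a median of -1.31. Beside 6.41% of all tested genes on the lower side, 8 of them had an unadjusted p under 0.05. That count was 4 without control mouse 2, 0 without control mice 1 and 2, and 1 with the hair shaft level as a covariate (median -0.88), and the median between EMdKO and EKO was -0.22 with 3 of 9 higher. Krt17 measured 2043, 1422, 1192 and 1181 CPM in the controls and 327, 1053, 716 and 685 CPM in MKO (-1.07 ± 0.32), Krt16 80.1, 370, 39.0 and 29.9 CPM against 10.03, 25.5, 21.2 and 9.29 CPM (-2.97 ± 0.94), and Klk6, an epidermal protease, differed by -2.93 ± 0.84. Fosl1, a wound-induced AP-1 subunit gene, measured 5.08, 8.63, 3.08 and 6.37 CPM in the controls and 1.10, 1.52, 2.86 and 1.25 CPM in MKO (-1.75 ± 0.63). Antimicrobial genes, 16 tested and 14 lower, had a median of -1.69, led by S100a7a (-4.30 ± 1.27) at 121 CPM in control mouse 1 and Stfa1 (-4.94 ± 1.64) at 36.5 CPM in control mouse 2. Elovl3, a fatty acid elongase of sebaceous glands, measured 109, 57.0, 46.1 and 23.9 CPM in the controls and 10.8, 22.6, 22.8 and 16.4 CPM in MKO (-1.69 ± 0.46). Without control mice 1 and 2 the medians of the stress and antimicrobial lists were -0.50 and -0.85. The antimicrobial median between EMdKO and EKO was -0.66, with 5 of 16 higher. Krt17, Krt16, Klk6 and Fosl1 differed in that pair by -0.22 ± 0.32, -2.81 ± 0.92, -1.39 ± 0.76 and 0.79 ± 0.59, none called.

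**Figure D4:**
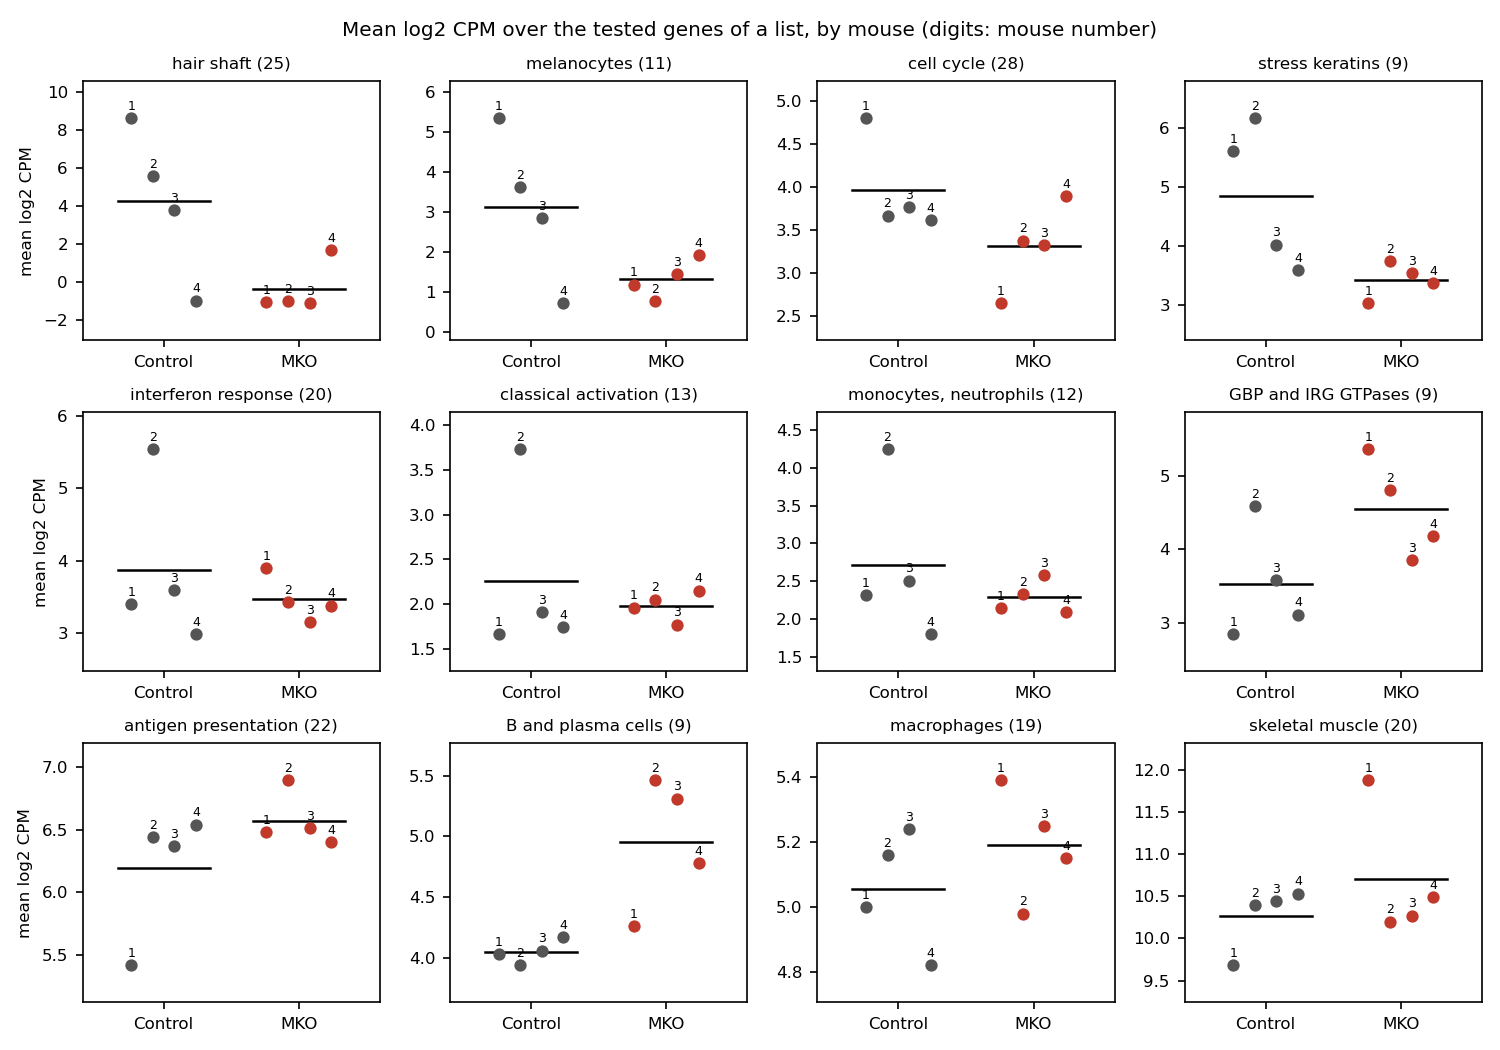
Mean log2 CPM over the tested genes of 12 lists (number of genes in brackets) in each control and MKO mouse, with the mouse number beside each point and a line at the group mean. Control mouse 1 is highest for hair shaft, melanocyte and cell cycle genes, control mouse 2 for interferon, classical activation and neutrophil genes, and MKO mouse 1 for skeletal muscle, while every MKO mouse lies above every control for B and plasma cell genes. The B and plasma cell mean includes Jchain and Pou2af1, which were high in MKO mice 2 and 3, and leaves out the untested genes of the list.

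Tissue sampled beside the skin itself also varied. The skeletal muscle list, which marks the muscle layer under the dermis, was higher in 20 of 20 tested genes with a median of 0.55, and its mean log2 CPM was 9.68, 10.39, 10.44 and 10.53 in the controls and 11.87, 10.20, 10.27 and 10.49 in MKO. Neb, a giant filament protein gene of muscle, measured 287, 433, 531 and 516 CPM in the controls and 1529, 652, 539 and 697 CPM in MKO (0.95 ± 0.34). Without MKO mouse 1 the median of the list was 0.08. Fitting the muscle score as a covariate left 4 genes called in MKO against control. MKO mouse 1 also held the highest level of Gbp2b, which was among those 4 called genes.

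**Figure D5:**
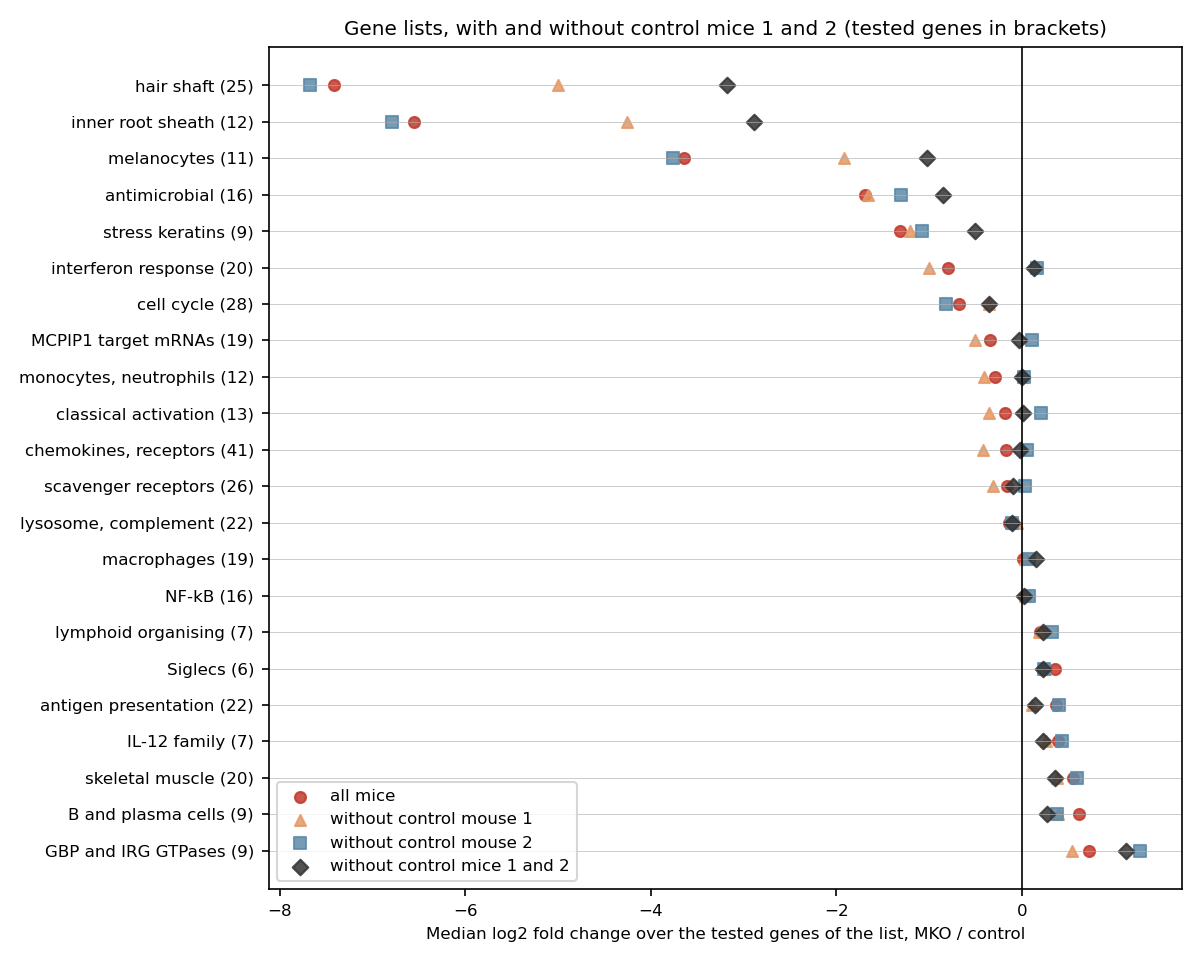
Median log2 fold change of MKO over control over the tested genes of 22 lists (number of genes in brackets), with all mice and with control mouse 1, control mouse 2 or both left out. Hair shaft, inner root sheath and melanocyte medians move toward 0 without control mice 1 and 2, and the interferon response median changes sign without control mouse 2. The GTPase, interleukin-12 family, B cell and antigen presentation medians stay above 0 in all 4 settings. So do the Siglec, lymphoid organising, skeletal muscle, macrophage and NF-kB medians.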

How the data were processed

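RNA from snap-frozen whole skin was turned into amplicon libraries with an Ion AmpliSeq mouse transcriptome kit, per the labels' protocols. The values are raw read counts per amplicon target as deposited by the authors, and HTSeq 0.6.0 and DESeq2 1.18.1 are named in the submitters' processing notes. The aligner, genome build and strand setting are not given in the sources used here, so reads of overlapping or antisense genes cannot be told apart. The 5 summary lines, 3.67% to 5.25% of the reads of the 8 libraries, were removed. RefSeq gave symbols to 22448 of 23930 targets and GENCODE to 114, and 707 of 761 list genes matched.

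All 16 libraries were fitted together in edgeR 4.0.16 (R 4.3.3) with TMM scaling, filterByExpr, 1 mean per group (12 residual degrees of freedom) and the quasi-likelihood test, and p was adjusted by Benjamini-Hochberg. The procedure was tested on simulated counts with 50 changed genes per size of change. There edgeR recovered 40% of changes of 1 log2 unit and 94% of changes of 2 units. It made 175 calls, 8 of them false, and DESeq2 made 193, 25 of them false. The simulated mice held no differences shared across genes, so these rates need not hold in the real libraries. Single genes fixed in the design were compared by exact two-sided permutation over the 70 assignments of 8 mice. Gene lists got no test. limma 3.58.1 and DESeq2 1.42.0 gave alternative fits, and normalization, filters, covariates, the mouse number as a block and the libraries in the fit were also varied. Figures and summaries used python 3.11.15 with matplotlib 3.10.9.

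The members and lists were chosen with earlier results of these data known. Genes in the text were taken from Zc3h12a, Lyz2, Krt14 and the skin markers, every called gene, the 12 higher and 12 lower genes next in p with a mean log2 CPM of at least 1, the 3 genes smallest in p of each list, and any tested relative of a called gene. Genes outside this rule were chosen after their values were seen and are marked so. The labels name separate mice, and p-values measure the spread between them. No pair of libraries agreed within sampling noise. Intervals cover counting error only.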

Additional observations from a re-analysis of the deposited data

Results flagged for a closer look

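In groups of 4 mice, a mouse was singled out where its gap to the nearest other mouse exceeded Dixon's critical share of the group's range at the 95% level, and 21 of 296 groups met this; chance does so in about 1 in 20 groups. Control mouse 2 lay above the other controls for Tlr9 (199.9 CPM), Cxcl10 (559.1 CPM), Ptgs2 (25.6 CPM), the GTPase gene Igtp (23.3 CPM), Pou2af1 (1.726 CPM) and the mean log2 CPM of the classical activation list (3.73). Control mouse 1 lay above them for Mt4 (530.6 CPM), Styk1 (4.459 CPM) and the mean log2 CPM of the cell cycle list (4.80), and below them for Ccl24 (3.592 CPM), H2-DMa (14.61 CPM) and the mean log2 CPM of antigen presentation genes (5.42).

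Among MKO mice, mouse 1 was lowest for Prex1 (28.84 CPM), Elf5 (0.9405 CPM) and Cd74 (1868 CPM) and highest for the mean log2 CPM of skeletal muscle genes (11.87). MKO mouse 4 was highest for Krt72 (7.655 CPM), Slfn4 (4.768 CPM) and the mean log2 CPM of hair shaft (1.69) and inner root sheath genes (4.84), and MKO mouse 3 was the only MKO mouse with a read of Oca2 (0.1192 CPM).

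Ccr7 differed by -1.85 ± 0.69 between MKO and control and by 0.31 ± 0.62 between EMdKO and EKO. The interaction was 2.16 ± 0.93 with an unadjusted p of 0.033 and an adjusted p of 0.999 by edgeR, so the difference was not called.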

How the results depend on the processing

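Against the 4 genes called in MKO against control, 116 were called by DESeq2, 0 by limma-voom (948 at an unadjusted p under 0.05), 2 with a filter at 5 CPM, 1 with the compared groups alone, 1 with the hair shaft score as covariate, 0 without control mice 1 and 2 together (324 at an unadjusted p under 0.05), and 1 to 5 with 1 library left out. The filter at 5 CPM and the removal of both controls were chosen after seeing the data. In EMdKO against EKO, 9 genes were called by DESeq2 and 1 to 3 with 1 library left out, and in the interaction 3 by DESeq2 and 0 with 1 library left out. RLE and upper-quartile scaling, no filter, a filter at 1 CPM and the muscle covariate left the counts at 4, 2 and 0. The same-sign share of lower genes was 65.3% without EKO mouse 1 and 92.3% at p under 0.001. The cause of these shifts was not tested.

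The mouse number as a replicate block left 4, 2 and 0 genes called. Same-numbered MKO and control mice deviated with r of -0.224, -0.108, -0.049 and -0.543, and same-numbered EMdKO and EKO mice with r of -0.133, -0.167, 0.174 and 0.397. Same-numbered MKO and control mice thus did not deviate together. Such correlations over all genes cannot exclude a shared litter or batch.

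Some differences turned sign. Without control mice 1 and 2 they were -0.12 for Zc3h12a, 0.19 for Siglec1, 0.75 for Tlr9, 0.45 for Cxcl10, 0.65 for Rsad2, 0.01 for Ptgs2, 0.29 for Ccl2 and -0.33 for Csf1r. With the hair covariate they were 0.14 for Siglec1, 0.13 for Tlr9, 0.45 for Krt72, 0.04 for S100a7a and -0.05 for Csf1r. With limma-voom they were 0.42 for Tlr9 and -0.15 for Csf1r, and with no filter -0.01 for Csf1r. With 1 library left out the ranges were -0.06 to 0.27 for Zc3h12a, -0.39 to 0.07 for Siglec1, -0.20 to 0.16 for Mrc1, -0.81 to 0.76 for Tlr9, -0.11 to 0.91 for Irgm1, -3.72 to 0.31 for Cxcl10, -3.22 to 0.43 for Rsad2, -0.18 to 0.18 for Csf1r, -1.67 to 0.11 for Ptgs2, -1.38 to 0.23 for Ccl2 -0.10 to 1.57 for Postn (the lowest without MKO mouse 3) and -0.07 to 0.47 for Cd74. By mean log2 CPM, leaving out 1 mouse gave -0.07 to 0.27 for Zc3h12a and -0.93 to -0.67 for Lyz2, where 3 against 4 mice cannot go below p = 0.0571 by exact permutation. Marco, Gbp2b and Mrgprg rest on 6, 10 and 14 control counts, which limits their fold changes.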

Other observations

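Clock genes stood higher in MKO skin in 11 of 14 tested cases, with a median difference of 0.24, and in 12 of 14 in EMdKO against EKO, with a median of 0.27; none was called. Nr1d2, a repressor of the circadian clock, measured 90.3, 121, 99.3 and 93.5 CPM in the controls and 220, 153, 142 and 133 CPM in MKO, without overlap (0.68 ± 0.32). Hlf, a clock-controlled transcription factor gene, measured 9.78, 13.9, 12.1 and 24.1 CPM in the controls and 23.7, 25.9, 49.1 and 20.7 CPM in MKO (1.00 ± 0.36). The labels used here give no hour of collection.

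Sebaceous gland genes were lower in MKO in 15 of 16 tested cases, with a median of -0.41 and none called, and 9 of 16 were higher in EMdKO than in EKO, with a median of 0.04. Adipocyte genes were highest in MKO mouse 1, with a mean log2 CPM of 8.40 against 6.46 to 7.64 in the other 7 mice.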
